A study of Homo sapiens with 12 samples.

Results

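MAP3K8 and 6 dual-specificity phosphatase genes, namely DUSP1, DUSP2, DUSP4, DUSP5, DUSP8 and DUSP10, were followed in THP-1 macrophages before and after lipopolysaccharide (LPS). A gene was described where it stood by symbol in either of 2 deposited tables of LPS-responsive genes, 1 table for each genotype. Of the 7 genes, 5 were listed (MAP3K8, DUSP1, DUSP2, DUSP5 and DUSP8), all of them in both tables, which together hold 3281 genes and share 1562. DUSP4 and DUSP10 stood in neither table and were not analysed here. Because a gene enters a table only when LPS changed it, the LPS response of each listed gene is a description, and the tests below concern the comparison of the genotypes.

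THP-1 is a human monocytic leukaemia line that acquires macrophage features under the phorbol ester PMA. All cells were exposed to PMA at 25 ng/ml for 72 hr and then kept for 4 days without it. The 12 poly(A) RNA-seq libraries formed 4 groups of 3. S80A cells, whose NFKB1 gene encodes alanine in place of serine 80 of the NF-κB subunit p50, were sampled after 3 hr of LPS at 10 ng/ml (S80A 3hr) and at 0hr (S80A 0hr). Wild-type cells were sampled in the same way (WT 3hr and WT 0hr). The series asks how this phosphorylation site bears on transcription induced by LPS. The labels do not say how the S80A cells were made, whether they are 1 clone, or whether replicates are separate cultures, so genotype and cell line cannot be told apart. Every p-value here rests on how far libraries differ within their groups, and that spread may be technical. The tests pool it over the groups compared and draw it toward that of the other genes tested.

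Macrophages sense LPS through TLR4, which switches on both NF-κB and the MAP kinases ERK, JNK and p38. MAP3K8, also called TPL-2, is the kinase that relays this signal to MEK and ERK. In resting macrophages it is bound and held inactive by p105, the precursor of p50 made from NFKB1, and is freed when p105 is broken down. The dual-specificity phosphatases remove phosphate from both the threonine and the tyrosine that activate a MAP kinase, and many are transcribed in response to the kinases they switch off. MAP3K8 thus starts a MAP kinase branch and the phosphatases end it.

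Expression is given as scaled reads, the read count of a gene divided by 1 size factor per library. Reads on the listed genes ranged from 1924562 to 5789918 per library and size factors from 0.834 to 1.29. NFKB1, the gene named in the S80A genotype, had 28402, 21622 and 19572 scaled reads in S80A 3hr, against 22659.9, 24064 and 23146 in WT 3hr, and its LPS response differed by -0.083 log2 between genotypes (limma, Benjamini-Hochberg adjusted p = 0.854). A point change does not have to alter its own transcript, so this level does not check the genotype. Of 12 macrophage and monocyte markers, 4 were listed (CD14, FCGR3A, CD163 and CEBPB), with summed levels of 3078 to 5161 scaled reads in S80A 3hr, 2817 to 4235 in WT 3hr, 3785 to 8356 in S80A 0hr and 4040 to 6340 in WT 0hr. CD14 made up much of that sum at 0hr, and the markers went different ways there: CD163 averaged 1015 scaled reads in S80A 0hr against 2297 in WT 0hr and FCGR3A 24.8 against 52.5, both lower in S80A cells without overlap, while CD14 averaged 3995 against 2489 and CEBPB 1035 against 501, with overlap. None of these 4 differences passed the limma test at 0hr or at 3hr. No marker of T and NK cells, fibroblasts and epithelium, or erythroid cells was listed. Only genes changed by LPS could be listed, so this does not show that such markers were absent. Of 5 B-cell markers, CD79B and PAX5 were listed, and their sum was 25.2 to 74.8 scaled reads in S80A 3hr, 82.2 to 207 in WT 3hr, 34.6 to 78.7 in S80A 0hr and 34.7 to 74.8 in WT 0hr, with no library at 0 for either gene. The gap at 3hr came from PAX5 (40.9 in S80A 3hr against 141 in WT 3hr, limma adjusted p = 0.0299), and CD79B averaged 10.8 in S80A 3hr against 10.0 in WT 3hr. The part of these levels in the results was not tested. In bulk RNA, fewer cells of a kind and less RNA per cell cannot be told apart.

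Promoter windows are shown because MAP3K8 and DUSP1 stood on opposite sides of WT in S80A cells at 3hr, with DUSP8 beside them for the motif it shares with DUSP1. RefSeq (GRCh38.p14) gave windows of 250 bases before to 50 bases after the start for 4 of the 5 listed genes, 6 windows in all, with 3 for MAP3K8 and none for DUSP5. On both strands, 3 motifs were searched: the cAMP response element TGACGTCA, the AP-1 element TGANTCA and the NF-κB (κB) consensus, none of which overlapped another in these windows. Capitals mark the matches in the 4 windows printed 5′ to 3′ on the gene's strand.
MAP3K8, window A, chr10:30433771-30434070, plus strand: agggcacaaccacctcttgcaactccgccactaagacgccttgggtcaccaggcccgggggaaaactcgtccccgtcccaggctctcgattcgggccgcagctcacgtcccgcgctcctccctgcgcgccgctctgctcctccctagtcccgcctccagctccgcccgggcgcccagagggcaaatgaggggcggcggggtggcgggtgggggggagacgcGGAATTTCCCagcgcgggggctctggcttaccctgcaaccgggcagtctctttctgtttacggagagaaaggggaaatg
MAP3K8, window C, chr10:30434396-30434695, plus strand: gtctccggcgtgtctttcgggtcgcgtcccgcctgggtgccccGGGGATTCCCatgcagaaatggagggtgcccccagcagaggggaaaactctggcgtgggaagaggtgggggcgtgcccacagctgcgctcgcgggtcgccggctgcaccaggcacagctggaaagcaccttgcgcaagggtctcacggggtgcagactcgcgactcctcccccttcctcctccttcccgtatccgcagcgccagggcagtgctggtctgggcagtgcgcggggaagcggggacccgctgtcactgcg
DUSP1, chr5:172771146-172771445, minus strand: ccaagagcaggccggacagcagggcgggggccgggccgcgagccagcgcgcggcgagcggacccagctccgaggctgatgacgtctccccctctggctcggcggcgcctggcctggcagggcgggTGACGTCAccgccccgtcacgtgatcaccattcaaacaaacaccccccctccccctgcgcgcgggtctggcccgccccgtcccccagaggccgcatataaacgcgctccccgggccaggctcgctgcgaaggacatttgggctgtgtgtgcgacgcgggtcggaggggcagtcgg
DUSP8, chr11:1572222-1572521, minus strand: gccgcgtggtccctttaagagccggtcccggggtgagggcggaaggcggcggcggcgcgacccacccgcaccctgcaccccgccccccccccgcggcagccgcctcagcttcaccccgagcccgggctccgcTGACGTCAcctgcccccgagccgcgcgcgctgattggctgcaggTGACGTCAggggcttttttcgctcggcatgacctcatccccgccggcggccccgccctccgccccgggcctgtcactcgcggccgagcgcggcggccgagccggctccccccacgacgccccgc

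All 3 MAP3K8 windows held a κB match, but windows A and B held the same site. In window A it began 29 bases before the start and read GGAATTTCCC, and in window C it began 207 bases before and read GGGGATTCCC. Window B overlaps window A and holds that window's κB site, with 1 AP-1 match (TGAGTCA) 51 bases before its own start. The DUSP1 window held 1 cAMP response element 125 bases before the start, and the DUSP8 window held 2, at 118 and 74 bases before. Neither phosphatase window held a κB match, and the DUSP2 window (chr2:96145391-96145690, minus strand) held none of the 3 motifs. All starts here are those of RefSeq, and they need not match the gene spans given below. That of DUSP8 (chr11:1572271) lies upstream of its span (chr11:1554044-1571920), and the 3 MAP3K8 starts lie inside the MAP3K8 span. Over 35116 RefSeq promoter windows of the same length, 5.91% held the κB consensus, 1.85% the cAMP response element and 7.71% the AP-1 element. These shares are per window, and MAP3K8 had 3 windows where DUSP1, DUSP2 and DUSP8 had 1 each. A match is a description of these letters and no binding was measured.

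LPS raised all 5 genes in both genotypes by the authors' calls, against a background of 8.67% of the 17486 genes tested by the authors called as rising in S80A cells and 8.24% in WT cells (5.67% and 5.11% were called as falling). The rule used this contrast, so nothing is read from that count. By the main test of the difference, which did not pair libraries, the rise was smaller in S80A cells for 2 of the 5, MAP3K8 and DUSP5. DUSP1 missed the threshold (limma adjusted p = 0.0544). It passed in 7 of 22 alternatives, among them a block of replicate numbers within each genotype, added after seeing the data. After 3 hr of LPS, S80A cells held less MAP3K8 and more DUSP1 than WT cells. Before LPS, S80A cells already held more DUSP1 and DUSP5.

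**Figure D1:**
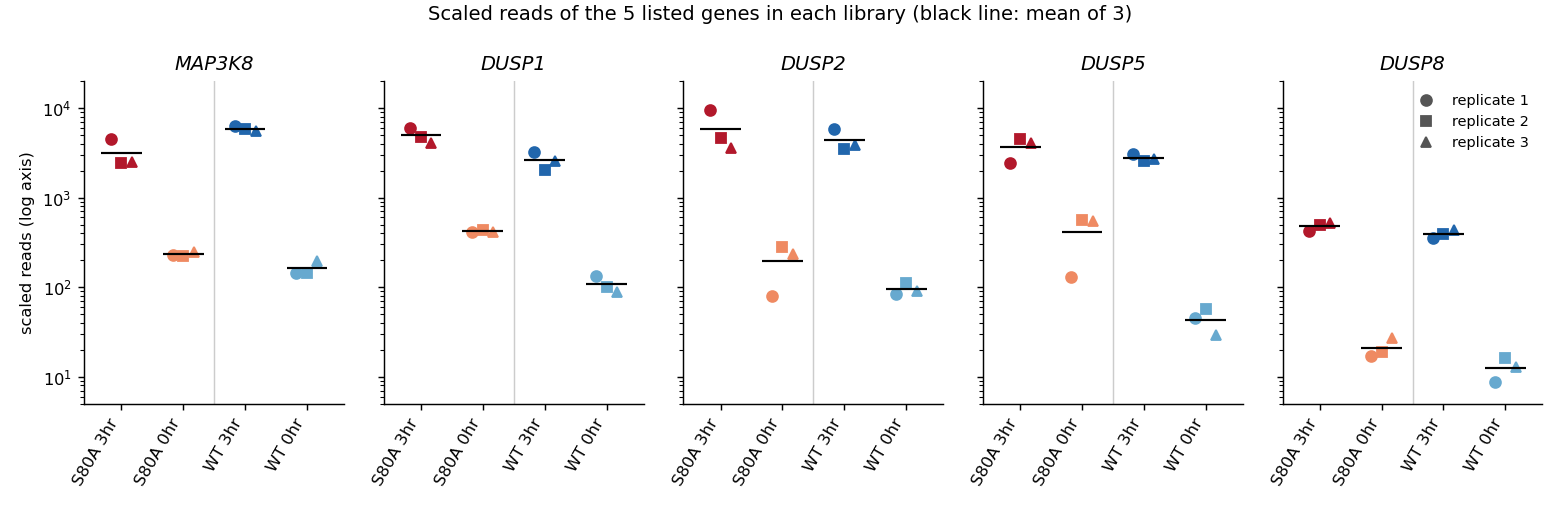
Scaled reads (log axis) of MAP3K8, DUSP1, DUSP2, DUSP5 and DUSP8 in each of the 12 libraries, with S80A 3hr, S80A 0hr, WT 3hr and WT 0hr from left to right; symbols mark the replicate number and black lines the mean of 3. MAP3K8 is lower in all 3 S80A 3hr libraries than in WT 3hr, DUSP1 is higher, and S80A replicate 1 at 0hr (circle) lies below the other 2 for DUSP2 and DUSP5.

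The kinase gene MAP3K8 (ENSG00000107968, chr10:30433937-30461833, plus strand, GRCh38) had 4482, 2460.3 and 2525 scaled reads in S80A 3hr replicates 1, 2 and 3, against 6282, 5771 and 5544 in WT 3hr. The lowest WT 3hr library lay above the highest S80A 3hr library, and S80A replicate 1 lay well above the other 2 of its group. Before LPS it had 228, 222 and 248 in S80A 0hr, against 145, 143 and 198 in WT 0hr. Here the groups did not overlap either, but in the opposite order, with S80A cells higher. The means were 3156 ± 1149 in S80A 3hr, 5865 ± 378 in WT 3hr, 233 ± 13.5 in S80A 0hr and 162 ± 30.8 in WT 0hr (SD, n = 3 each). LPS thus multiplied the mean 13.6 times in S80A cells and 36.2 times in WT cells.

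For MAP3K8, the authors' deposited table gives a log2 fold change of 3.70 in S80A cells (DESeq2 adjusted p 2.25e-52) and 5.09 in WT cells (adjusted p 6.01e-98). The difference of the LPS response, S80A minus WT, was -1.48 log2 (SE 0.34, 95% interval -2.24 to -0.72, limma adjusted p = 0.0181). Across 22 alternative settings it ranged from -1.78 to -1.33, with adjusted p 0.00145 to 0.0477 by the tool of each setting. At 3hr alone MAP3K8 differed by -0.95 log2 (SE 0.28, limma adjusted p = 0.0298), with the ratio of the S80A mean to the WT mean at 0.538. That call was lost when any one of S80A 3hr replicates 2 and 3 or WT 3hr replicates 1, 2 and 3 was left out (limma adjusted p up to 0.0983), and was -1.23 log2 (adjusted p = 0.00217) without S80A replicate 1. At 0hr the difference of 0.53 log2 (95% interval 0.12 to 0.95) missed the threshold (limma adjusted p = 0.0607), and it passed without WT 0hr replicate 3 (adjusted p = 0.0458).

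Of the phosphatases, DUSP1 (ENSG00000120129, chr5:172768090-172771195, minus strand, GRCh38), a nuclear phosphatase of p38 and JNK, had 6002, 4792 and 4108 scaled reads in S80A 3hr, against 3244, 2039.9 and 2536 in WT 3hr. All S80A 3hr libraries lay above all WT 3hr libraries. Before LPS it had 415, 434 and 418 in S80A 0hr, against 132, 101 and 87.9 in WT 0hr, a gap many times wider than the spread within either group. The means were 4967 ± 959 in S80A 3hr, 2607 ± 605 in WT 3hr, 422 ± 9.92 in S80A 0hr and 107 ± 22.4 in WT 0hr (SD, n = 3 each). S80A cells therefore had 1.91 times the WT mean after LPS and 3.95 times before it.

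The genotype difference of DUSP1 was 0.94 log2 at 3hr (SE 0.26, 95% interval 0.33 to 1.55, limma adjusted p = 0.0234) and 1.99 log2 at 0hr (SE 0.17, 95% interval 1.55 to 2.43, limma adjusted p = 0.00346). The 0hr call held in all 16 alternatives run, 2 of which are the same fit. The 3hr call was lost with DESeq2 size factors computed on the listed genes alone (0.71 log2, limma adjusted p = 0.0569). It was also lost without S80A 3hr replicate 2 or WT 3hr replicate 2 or 3 (limma adjusted p up to 0.0847). LPS multiplied the mean of DUSP1 11.8 times in S80A cells and 24.4 times in WT cells, while the mean gained 4545 scaled reads in S80A cells and 2499.8 in WT cells. On the log2 scale the difference of the response was -1.05 (SE 0.33, 95% interval -1.77 to -0.33) and missed the threshold (limma adjusted p = 0.0544). The 0hr and 3hr libraries of each genotype pair by replicate number, and with that pairing as a block the call passed (limma adjusted p = 0.038 with a block within each genotype). It passed in 7 of 22 alternatives, among them edgeR's quasi-likelihood test (adjusted p = 0.0457) and DESeq2 (adjusted p = 0.015), and without S80A replicate 1 at both times (limma adjusted p = 0.0329).

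DUSP5 (ENSG00000138166, chr10:110497838-110511544, plus strand, GRCh38), a nuclear phosphatase selective for ERK, had 2456, 4458 and 4080.0 scaled reads in S80A 3hr, against 3088, 2538 and 2681 in WT 3hr. These groups overlapped, since S80A replicate 1 lay below all WT libraries and the other 2 above them. Before LPS it had 128, 569 and 544 in S80A 0hr, against 45.0, 56.3 and 29.0 in WT 0hr. All S80A 0hr libraries were higher than all WT 0hr libraries, and S80A replicate 1 was far below the other 2 of its group. The means were 3665 ± 1064 in S80A 3hr, 2769 ± 285 in WT 3hr, 414 ± 247 in S80A 0hr and 43.5 ± 13.7 in WT 0hr (SD, n = 3 each).

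The level of DUSP5 before LPS was thus 9.52 times as high in S80A cells as in WT cells, the widest ratio between genotypes among the 5 genes at either time. The 0hr difference was 3.00 log2 (SE 0.66, 95% interval 1.35 to 4.64, limma adjusted p = 0.024) and was 3.70 (adjusted p = 0.00308) without S80A replicate 1. The 3hr difference was 0.36 log2 (95% interval -0.29 to 1.02, limma adjusted p = 0.316) and 0.63 (adjusted p = 0.0275) without S80A replicate 1. LPS multiplied the mean 8.86 times in S80A cells and 63.7 times in WT cells, and the difference of the response was -2.63 log2 (SE 0.71, 95% interval -4.20 to -1.07, limma adjusted p = 0.0332). The authors' deposited table gives 2.99 in S80A cells and 5.65 in WT cells. The 0hr call was lost when any one of S80A 0hr replicates 2 and 3 or WT 0hr replicates 1, 2 and 3 was left out (limma adjusted p up to 0.0828). The call for the response was lost in 11 of 22 alternatives (adjusted p up to 0.0824), 10 of which left out 1 library (any but S80A 0hr replicate 1 or WT 0hr replicate 2), and it was -3.07 (limma adjusted p = 0.000849) without S80A replicate 1 at both times.

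DUSP2 (ENSG00000158050, chr2:96143166-96145440, minus strand, GRCh38), a nuclear phosphatase of activated leukocytes, had 9449, 4569.9 and 3611 scaled reads in S80A 3hr, against 5815, 3505 and 3896 in WT 3hr. Before LPS it had 78.7, 283 and 232 in S80A 0hr, against 83.1, 112 and 89.5 in WT 0hr. The genotypes overlapped at both times, and S80A replicate 1 was the highest of all libraries after LPS and the lowest of all before it. No genotype difference of DUSP2 passed the test. It was 0.32 log2 at 3hr (95% interval -0.63 to 1.28, limma adjusted p = 0.535), 0.87 at 0hr (-0.41 to 2.16, adjusted p = 0.243) and -0.55 for the response (-2.02 to 0.92, adjusted p = 0.594).

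Those DUSP2 values rested on S80A replicate 1. Without it the difference at 3hr was -0.081 log2 (limma adjusted p = 0.82), the difference at 0hr was 1.44 (adjusted p = 0.00857), and the difference of the response, without that replicate at both times, was -1.52 (adjusted p = 0.0171). LPS multiplied the mean 29.7 times in S80A cells and 46.5 times in WT cells with all libraries.

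DUSP8 (ENSG00000184545, chr11:1554044-1571920, minus strand, GRCh38), a phosphatase of JNK and p38, had the fewest reads of the 5. It had 428, 498 and 520.3 scaled reads in S80A 3hr, against 350.0, 388 and 435 in WT 3hr, and 16.9, 18.6 and 27.3 in S80A 0hr, against 8.66, 16.1 and 12.9 in WT 0hr. The genotypes overlapped at 3hr by 1 library on each side, and all S80A 0hr libraries lay above all WT 0hr libraries. The 0hr groups rest on 67 reads in S80A cells and 46 in WT cells in all. No difference passed the limma test at 3hr (0.30 log2, -0.16 to 0.77, adjusted p = 0.243), at 0hr (0.71, -0.013 to 1.42, adjusted p = 0.118) or for the response (-0.40, -1.17 to 0.37, adjusted p = 0.444). The intervals (95%) leave room for a response of DUSP8 up to 1.17 log2 weaker in S80A cells.

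**Figure D2:**
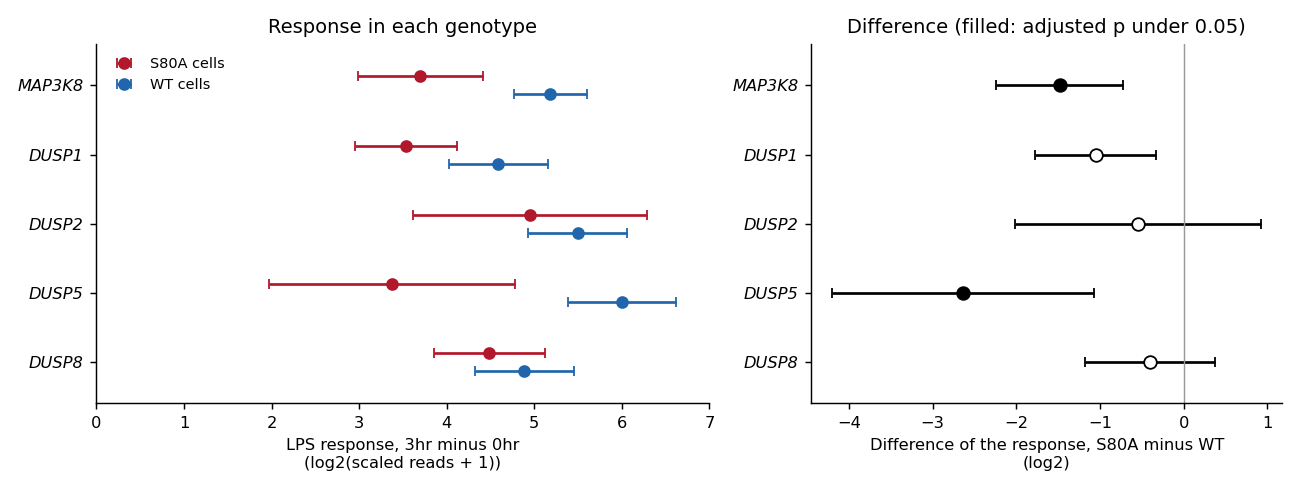
Left, LPS response (3hr minus 0hr, log2(scaled reads + 1)) of each gene in S80A cells (red) and WT cells (blue); right, the difference of the response, S80A minus WT. Points are limma estimates and bars 95% intervals; filled points on the right, MAP3K8 at -1.48 and DUSP5 at -2.63, have an adjusted p under 0.05.

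Of the 5 listed genes, 2 were called for the difference of the response, both lower in S80A cells, where 14.1% of the 3281 listed genes were called in either direction, 7.19% as higher and 6.95% as lower. Over the 1562 genes in both tables alone, where the listed genes all stand, 4.48% were called (2.69% higher and 1.79% lower), with MAP3K8 called (limma adjusted p = 0.0353) and DUSP5 not (0.0634). The 5 estimates were all below 0, with a median of -1.05 log2, where the median over the listed genes was 0.00. Among the 1045 genes that rose in both tables, the median was 0.05, 47.1% were below 0 and 3.73% were called as lower. At 3hr 2 of the 5 were called, 1 higher and 1 lower in S80A cells, where 47% of listed genes were called, 29.2% higher and 17.7% lower. At 0hr 2 of the 5 were called higher, where 30.7% were called, 20.1% higher and 10.6% lower. The groups did not overlap for DUSP1 (higher) and MAP3K8 (lower) at 3hr, beside 35.7% of listed genes higher and 23.3% lower without overlap. At 0hr they did not overlap for 4 of the 5, all higher in S80A cells, beside 31.6% of listed genes higher and 17.5% lower without overlap.

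**Figure D3:**
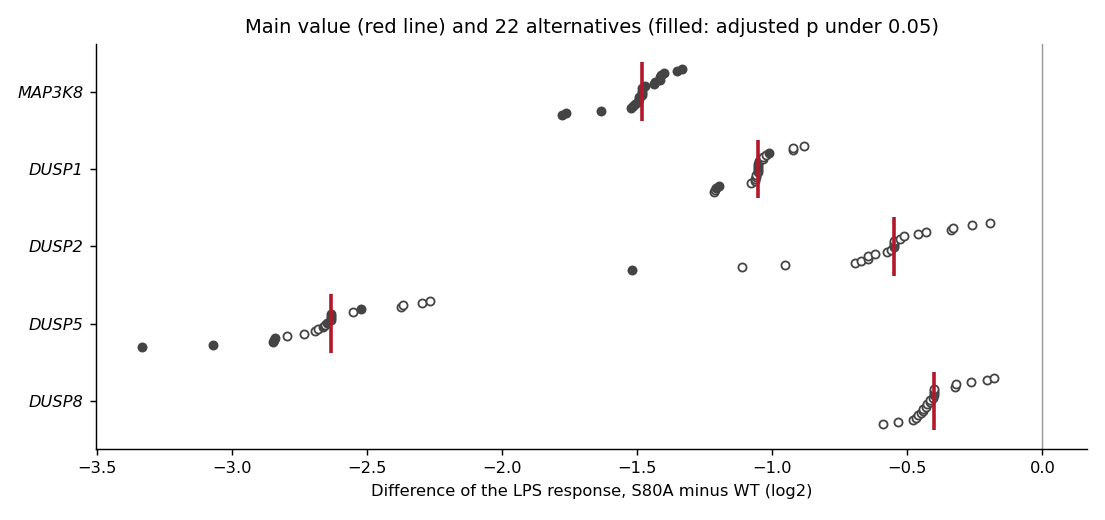
Difference of the LPS response, S80A minus WT (log2), for each of the 5 genes, with the main value as a red line and 22 alternative settings as points, filled where the adjusted p is under 0.05. All MAP3K8 points are filled and lie between -1.78 and -1.33, while those of DUSP5 are filled and open between -3.33 and -2.27.

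Levels were compared between genes per kilobase of exon (merged exons, GENCODE 29). In S80A 3hr the order was DUSP2 (3481 ± 1855 scaled reads per kilobase), DUSP1 (2460.2 ± 475), DUSP5 (1433 ± 416), MAP3K8 (929 ± 338) and DUSP8 (108 ± 10.7; SD, n = 3 each). In WT 3hr MAP3K8 (1726 ± 111) was second to DUSP2 (2609.8 ± 733), ahead of DUSP1 (1291 ± 299.8), DUSP5 (1083 ± 112) and DUSP8 (87.2 ± 9.46). After LPS, MAP3K8 therefore stood behind DUSP1 in all 3 S80A libraries and ahead of it in all 3 WT libraries. The libraries of DUSP2 and DUSP1 overlapped in S80A 3hr, as did those of DUSP5 and MAP3K8, and in WT 3hr those of DUSP1 and DUSP5 overlapped.

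Before LPS, the S80A 0hr order was DUSP1 (209 ± 4.91 scaled reads per kilobase), DUSP5 (162 ± 96.7), DUSP2 (117 ± 63.0), MAP3K8 (68.4 ± 3.97) and DUSP8 (4.67 ± 1.24), and each neighbouring pair down to MAP3K8 overlapped. In WT 0hr, DUSP2 (56.2 ± 8.91), DUSP1 (53.0 ± 11.1) and MAP3K8 (47.7 ± 9.06) overlapped one another in that order, above DUSP5 (17.0 ± 5.36) and DUSP8 (2.80 ± 0.831). DUSP8 was lowest per kilobase in all 4 groups.

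The pattern over the 12 libraries was compared by the root mean square difference of centred log2 values, among 2878 genes with a mean of at least 20 scaled reads, and this is a description with no test. The genes most like MAP3K8 were SLC2A6 (0.278 log2), a glucose transporter gene, and NFKB2 (0.281), which encodes the p100 precursor of NF-κB, where the median gene lay at 2.04. DUSP1 was most like TMEM217 (0.443) and RASGEF1B (0.466), and DUSP2 most like SDC4 (0.420), a heparan sulphate proteoglycan of the cell surface, and ADRA1B (0.440). DUSP5 was most like VEGFC (0.405), a growth factor of lymphatic vessels, and GBP4 (0.512), and DUSP8 most like MSC (0.230) and FOXF1 (0.307), both transcription factor genes. Among the 5 genes themselves MAP3K8 and DUSP8 were closest (0.583) and MAP3K8 and DUSP5 farthest apart (1.21).

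Of 23 other genes of the dual-specificity phosphatase family, taken by symbol, 5 were listed (DUSP6, DUSP7, DUSP16, DUSP22 and DUSP27). Of these 5, 3 rose and 2 fell with LPS in S80A cells and 1 rose and 2 fell in WT cells. Whether each encodes an active phosphatase of MAP kinases was not checked. DUSP6, the cytoplasmic phosphatase of ERK, had 11379.8, 19549 and 16672 scaled reads in S80A 3hr, against 3639, 4386 and 4429 in WT 3hr. At 0hr it had 5848, 7447 and 8782 in S80A cells, against 2434, 2898 and 2774 in WT cells. The genotypes were far apart at both times, by 1.90 log2 at 3hr (limma adjusted p = 0.00205) and 1.43 at 0hr (adjusted p = 0.00644), and its difference of the response was 0.48 log2 (adjusted p = 0.342).

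Of these 5, only DUSP22 was called for the difference of the response, where 14.1% of listed genes were called, 7.19% as higher. DUSP22 is an atypical phosphatase linked to JNK signalling. It had 482, 707 and 538 scaled reads in S80A 3hr, against 216, 247 and 219 in WT 3hr, and 143, 163 and 122 in S80A 0hr, against 181, 203 and 215 in WT 0hr. S80A cells were thus higher after LPS and lower before it, without overlap at either time. The difference of the response was 1.81 log2 (SE 0.28, limma adjusted p = 0.0031), with 1.32 at 3hr (adjusted p = 0.00374) and -0.49 at 0hr (adjusted p = 0.0623). DUSP16, a phosphatase of JNK, showed no called difference (0.21 log2 for the response, limma adjusted p = 0.669). Its S80A libraries all lay above its WT libraries at both times, as for 35.7% of listed genes at 3hr and 31.6% at 0hr. The genotype difference of DUSP16 was 0.68 log2 at 3hr (limma adjusted p = 0.0518) and 0.47 at 0hr (adjusted p = 0.117). DUSP7, named after its values were seen, was higher in S80A cells at 0hr (1.16 log2, limma adjusted p = 0.00918).

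**Figure D4:**
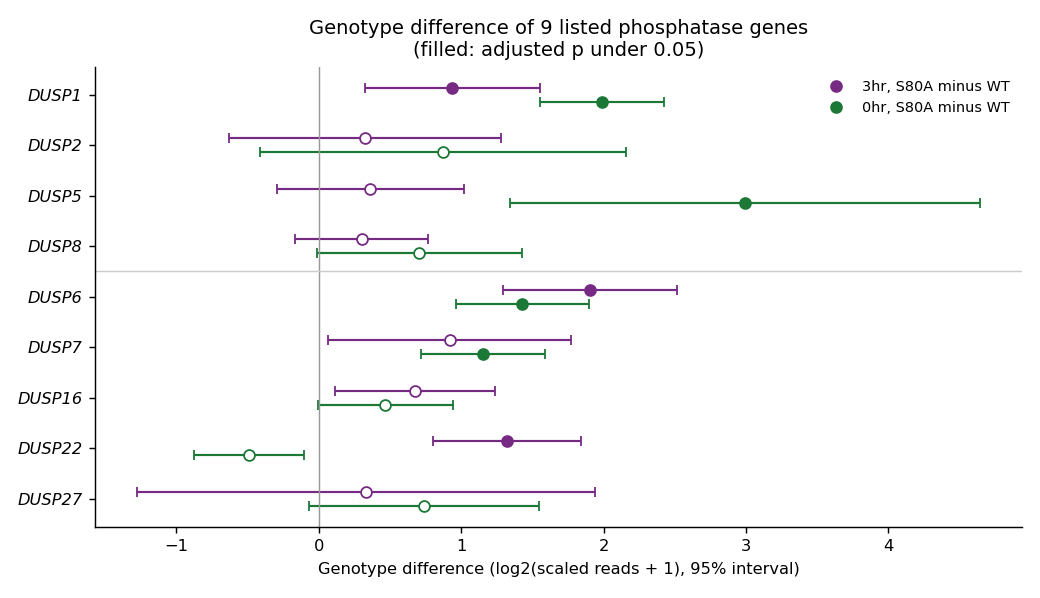
Genotype difference, S80A minus WT (log2(scaled reads + 1)), of 9 listed DUSP genes at 3hr (purple) and 0hr (green). Points are limma estimates, bars are 95% intervals, and filled points have an adjusted p under 0.05. DUSP5 at 0hr (3.00) and DUSP6 at 3hr (1.90) are filled, and DUSP22 lies on opposite sides of 0 at the 2 times.

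The proteins that work with MAP3K8 and the genes around its pathway were counted by list. Of 13 partners and activators of MAP3K8, 5 were listed, 4 rising and 1 falling in each genotype. TNIP2, which encodes ABIN-2, the protein that binds MAP3K8 together with p105, was called for the difference of the response (0.79 log2, limma adjusted p = 0.0444), with 2194 ± 133 scaled reads in S80A 3hr against 1518 ± 98.5 in WT 3hr and 508 ± 54.6 in S80A 0hr against 606 ± 34.9 in WT 0hr (SD, n = 3 each). That call was lost in 14 of 22 alternatives, with adjusted p up to 0.101, among them the block of replicate numbers within each genotype (limma adjusted p = 0.0549). Of 43 MAP kinases and upstream kinases 7 were listed. None of the 7 was called for the response, where 14.1% of listed genes were, against 1 (lower) with 2 other scalings. By limma, 2 of the 7 were called higher in S80A cells at 0hr and 0 lower, where 20.1% and 10.6% of listed genes were. At 3hr 2 were called higher and 1 lower, where 29.2% and 17.7% of listed genes were. MAP3K5, also called ASK1, an activator of JNK and p38, was among those higher at 0hr (1.11 log2, limma adjusted p = 0.00667). Its response difference of -0.90 log2 missed the threshold (limma adjusted p = 0.0564). Of 10 kinases downstream of the MAP kinases 2 were listed, and they went opposite ways. RPS6KA3, a kinase activated by ERK, had a larger response in S80A cells (1.26 log2, limma adjusted p = 0.0395), a call lost in 9 of 21 alternatives (adjusted p up to 0.097). RPS6KA1 had a response difference of -0.77 log2 that missed the threshold (limma adjusted p = 0.0664), and was called lower in S80A cells at 3hr (-0.75 log2, limma adjusted p = 0.0225). None of 10 other phosphatases that act on MAP kinases was listed.

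Of 23 feedback and target genes of ERK, 13 were listed, with 10 rising and 2 falling in S80A cells and 10 rising in WT cells. By limma, 6 of the 13 were called higher in S80A cells at 3hr, where 29.2% of listed genes were, and none lower. At 0hr 5 were called higher and 1 lower, where 20.1% and 10.6% of listed genes were. The list medians were 0.81 log2 at 3hr and 1.03 at 0hr, where the listed genes as a whole had 0.19 at each time. With 2 other scalings the counts of genes called higher fell to 3 at 3hr and 4 at 0hr. Those scalings also called fewer of all listed genes as higher at both times, as given in the last section. The shares above therefore do not stand beside these lower counts. MYC, a transcription factor gene, was the 1 called lower at 0hr (-1.39 log2, limma adjusted p = 0.00609), with 775 ± 119.9 scaled reads in S80A 0hr against 2024 ± 289.8 in WT 0hr and 2741 ± 566 in S80A 3hr against 1404 ± 159 in WT 3hr (SD, n = 3 each). Its response was larger in S80A cells by 2.34 log2 (limma adjusted p = 0.0014). ETV5, an ETS transcription factor gene, had a response of -1.45 log2 relative to WT (adjusted p = 0.0447), a call lost in 11 of 21 alternatives (adjusted p up to 0.104).

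Of 16 scaffolds, activators and targets of JNK and p38, 9 were listed, with 6 rising and 1 falling in S80A cells and 7 rising and 1 falling in WT cells. By limma, 6 of the 9 were called higher in S80A cells at 0hr, where 20.1% of listed genes were, and 5 with 2 other scalings. At 3hr 3 of the 9 were called higher, a share near the 29.2% of listed genes, and 1 with those scalings. Those scalings also called fewer of all listed genes as higher at both times, so these shares do not stand beside their counts. JUN, a target of JNK and part of AP-1, had 2888 ± 569 scaled reads in S80A 0hr against 874 ± 106 in WT 0hr (SD, n = 3 each), 1.71 log2 higher (limma adjusted p = 0.00482). ATF3, a stress-induced transcription factor gene, was 2.47 log2 higher at 0hr (limma adjusted p = 0.0123). The response of JUN was smaller in S80A cells by the test (-1.05 log2, limma adjusted p = 0.0486), a call lost in 11 of 22 alternatives (adjusted p up to 0.114). Over the lists, the naming rule took 20 genes. Of these, 6 were called for the response (DUSP22, RPS6KA3, TNIP2, MYC, ETV5 and JUN), and the other 14 were not. The rule took 2 genes per list by the smallest p for this same difference, so nothing is read from that count. Over all listed genes 14.1% were called.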

How the data were processed

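The 7 genes, the lists and the tests were chosen with earlier results of these data known. Stranded poly(A) libraries gave single-end 75-base reads, per the labels' protocols. The submitters' processing notes name the build GRCh38 and HISAT, HTSeq and DESeq2 among the tools. No strand setting for the counting is given in the sources used here, so reads from antisense partners cannot be told apart.

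The deposited signal values proved to be counts over a size factor: 100% were whole multiples of 1 read to within 0.01 reads. The tables with the authors' log2 fold changes and p-values keep only genes they called (adjusted p below 0.01, log2 change beyond 1), 2508 for S80A and 2335 for WT cells. Shares of listed genes therefore do not describe the transcriptome, and the 17486 genes tested were inferred from the authors' adjusted and raw p-values.

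Main tests used limma 3.58.1 (R 4.3.3) on log2(scaled reads + 1) over 3281 genes, with 12 libraries for the difference of the response and 6 for other contrasts, and Benjamini-Hochberg adjustment at 0.05; this scale understates changes of genes with few reads. Alternatives changed the pseudocount, low-value filter, scaling, libraries, replicate block and genes tested. The 2 other scalings, TMM and DESeq2 factors, both used the listed genes alone. Further alternatives applied edgeR 4.0.16 and DESeq2 1.42.0 to the recovered whole reads. These called 409 and 646 genes for the difference of the response, against 464 with limma. In simulated counts for these genes, limma found 7% of response differences of 1 log2 and 85% of those of 2 log2, and 9 of its 101 calls were false. The simulation gave every gene a dispersion of 0.05, used WT means for both genotypes, changed 200 genes and held no replicate pairing. Its percentages therefore hold for those settings and do not measure recovery in these data.

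A block of replicate numbers within each genotype was added after seeing the data. Same-numbered libraries deviated together between S80A 3hr and S80A 0hr (r 0.205 to 0.384), WT 3hr and WT 0hr (0.218 to 0.407) and S80A 0hr and WT 0hr (0.212 to 0.317), each over 3 pairs and across genes. The genes named were NFKB1, the 7 genes, per list the 2 with the smallest p for the difference and the 2 with the largest authors' fold change, and the 2 most like each listed gene. Figures were drawn with matplotlib 3.10.9.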

Additional observations from a re-analysis of the deposited data

Results flagged for a closer look

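By the main test of the difference, which did not pair libraries, the LPS response differed between the genotypes for 2 of the 5 listed genes. DUSP1 missed the threshold in that test and passed in 7 of 22 alternatives. For MAP3K8 the difference, S80A minus WT, was -1.48 log2, and for DUSP5 it was -2.63 log2. The group means behind MAP3K8 were 3156 scaled reads in S80A 3hr, 5865 in WT 3hr, 233 in S80A 0hr and 162 in WT 0hr, so its gap lay mostly in the level after LPS. Those behind DUSP5 were 3665 in S80A 3hr, 2769 in WT 3hr, 414 in S80A 0hr and 43.5 in WT 0hr, so its gap lay mostly in the level before LPS. For DUSP5, S80A replicate 1 lay below the other 2 S80A libraries at both times, and the difference without it at both times was -3.07 log2 for DUSP5 and -1.78 log2 for MAP3K8. The MAP3K8 call held in all 22 alternatives run, and the DUSP5 call was lost in 11 of 22 (adjusted p up to 0.0824), 10 of which left out 1 library.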

How the results depend on the processing

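The 25 results of the 5 genes gave 425 values under the alternatives, of which 383 kept direction and side of the threshold, 25 lost the call, 15 gained it and 2 changed sign. Both sign changes were the DUSP2 difference at 3hr, at -0.081 log2 without S80A replicate 1, and are 1 fit counted under 2 settings. For a genotype difference at a single time, leaving out S80A replicate 1 at both times is the same fit as leaving out that library. The tallies above count such fits under both settings. Leaving out 1 library gave -0.081 to 0.61 log2 for DUSP2 at 3hr. DUSP2 was also called at 0hr by DESeq2 (adjusted p = 0.0417), and DUSP8 at 0hr in the fit of all 12 libraries (limma adjusted p = 0.049).

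For the response of NFKB1, which was not called, leaving out 1 library gave -0.24 to 0.031 log2.

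Restricting the test to the 1562 genes in both tables, which is fewer genes by construction, left 70 calls for the difference of the response against 464, 617 against 1541 at 3hr, 409 against 1007 at 0hr, and for LPS 1559 against 2794 in S80A and 1562 against 2973 in WT cells. There, MAP3K8 kept its call (adjusted p = 0.0353) and DUSP5 lost it (0.0634). Without S80A replicate 1 at both times, 805 genes were called for the difference of the response. Leaving out 1 library gave 259 to 663 calls for the difference of the response, 1055 to 1788 at 3hr, 497 to 1200 at 0hr, 2497 to 2690 for LPS in S80A and 2845 to 2968 in WT cells. The cause was not tested.

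Scaling moved the balance of calls. At 3hr 959 genes were higher and 582 lower in S80A cells. With TMM factors the counts were 798 and 743, and with DESeq2 factors 787 and 772. Both kinds of factor were computed on the listed genes alone. At 0hr the counts were 660 and 347, against 492 and 457 and against 480 and 438. For LPS in S80A cells 1640 genes were higher and 1154 lower, against 1172 and 1324 and against 1402 and 1297. The median of the listed genes moved with them from 0.19 to -0.01 and -0.03 at 3hr and to 0.01 and 0.00 at 0hr. Since both scalings took their factors from these same genes, a move toward 0 is largely built in. It does not check the authors' size factors.

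The replicate numbers paired 0hr with 3hr in each genotype and the genotypes at 0hr. The replicate block changed no call of the 5 genes for the LPS responses or at 0hr (1009 calls at 0hr, and for LPS 2884 in S80A and 3007 in WT cells). For the difference of the response, a replicate block within each genotype, chosen after seeing the data, gave 657 calls, gained that of DUSP1 (limma adjusted p = 0.038) and changed none of the other 4. A replicate block shared by the genotypes gave 620 calls, DUSP1 among them (adjusted p = 0.03). The numbers paired S80A 3hr with WT 3hr less clearly (r 0.0733 to 0.253, with 2 of 3 pairs over 0.1). There 5 of 6 libraries were closest to their own number, and the block gave 1493 calls. In simulated counts, under the settings given above, 7% of response differences of 1 log2 and 33% of those at 3hr were found. Recovery was not measured at 0hr. DUSP8 at 0hr rests on few reads.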
